A study of Mus musculus with 7 samples.

Results

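The genes analyzed were Cxcl1, Cxcl2, Cxcl3, Cxcl5, Cxcl15, Cxcl9, Cxcl10 and Cxcl11, 8 CXC chemokine genes on mouse chromosome 5, in ATAC-seq of sorted bone marrow LSK cells. ATAC-seq reports open chromatin as peaks of transposase insertion. These genes were chosen from measured values of the same libraries, because the Cxcl1 promoter had been found to differ between the groups, and the related chemokine genes of the chromosome were added to it. A peak was counted when its summit lay inside a body of the 8 genes or within 30 kb of it (mm10, GENCODE vM21). That rule took 285 of the 1010058 peaks in the 7 libraries, and they formed 41 sites in 3 stretches of chromosome 5.

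WTAkita libraries (n = 4) came from adult wild-type offspring, strain C57/BL6, that were carried by diabetic Ins2Akita/+ dams and did not inherit the Ins2Akita mutation. Ctrl libraries (n = 3) came from wild-type offspring of normal pregnancies under a similar breeding scheme. Dams had received a high-fat diet before breeding, whereas the offspring ate a regular diet and were studied at 8 to 12 weeks of age. Each library was made from 50000 LSK cells, the lineage-negative, Sca-1+, c-Kit+ fraction that contains stem cells and early multipotent progenitors of blood, and the comparison asks whether the gestational environment left a mark on their chromatin. Marrow was pooled for sorting, and the sources do not say how many mice stand behind a library. Any p-value therefore measures the spread between these libraries. In such bulk samples, fewer cells with an open site and a weaker opening in each cell cannot be told apart.

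Each library had 137963 to 151552 peaks, and an estimated 37600000 to 53100000 tags, calculated from the background level of the lists. All values below are the fold enrichment that the authors' peak caller wrote for each summit, a ratio of the tag pileup to the local background, unless a log2 scale is named. The median fold enrichment over whole lists was lower in 3 libraries, WTAkita 1, WTAkita 2 and Ctrl 1 (5.25 to 5.79), than in the other 4 (6.32 to 6.59). Promoter peaks of the 8 LSK marker genes, among them Kit, Ly6a and Cd34, were called in all 7 libraries. Of the granulocyte and monocyte markers, 3 of 8 had a promoter peak in all 7 libraries and 3 of 8, S100a9, Camp and Ngp, had none in any. The summed fold enrichment of those granulocyte and monocyte promoters ranged from 21.03 to 31.9 in WTAkita libraries and from 23.4 to 30.2 in Ctrl libraries, and its part in the values below was not tested.

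CXC chemokines are small secreted proteins, named for a pair of cysteines with another residue between them, that draw leukocytes along a gradient. Cxcl1, Cxcl2, Cxcl3 and Cxcl5 act on the receptor Cxcr2 and recruit neutrophils, and in the marrow Cxcr2 ligands take part in the release of neutrophils into blood. Cxcl15 is known in mice as a chemokine of lung epithelium. Cxcl9, Cxcl10 and Cxcl11 are induced by interferon and act on Cxcr3 of T and NK cells. NF-kappaB is a well-known inducer of genes of both kinds. In the annotation Cxcl11 is a polymorphic pseudogene, since the reference strain carries a disrupted copy.

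RefSeq promoter sequences (GRCm38.p6) were at hand for 6 of the 8 genes, and not for Cxcl5 and Cxcl11. They are shown first because the 3 neutrophil chemokine genes with the clearest promoter peaks, Cxcl1, Cxcl2 and Cxcl3, carry the same letters just before the start of transcription. Capitals mark every match, on either strand, to the NF-kappaB consensus, TATAAA, the interferon-stimulated element (GAAA and again GAAA, with NN between), the RUNX motif TGTGGT and the C/EBP motif TTGCNNAA. The 100 bases before the RefSeq start of Cxcl1 (chr5:90891145-90891244, plus strand), Cxcl2 (chr5:90903799-90903898, plus strand), Cxcl3 (chr5:90786001-90786100, plus strand) and Cxcl15 (chr5:90794434-90794533, plus strand) read, 5′ to 3′:

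Cxcl1 promoter: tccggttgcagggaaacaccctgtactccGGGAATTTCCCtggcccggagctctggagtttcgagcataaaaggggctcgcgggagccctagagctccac

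Cxcl2 promoter: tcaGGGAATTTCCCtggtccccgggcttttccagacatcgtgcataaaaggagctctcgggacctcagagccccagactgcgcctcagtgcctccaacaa

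Cxcl3 promoter: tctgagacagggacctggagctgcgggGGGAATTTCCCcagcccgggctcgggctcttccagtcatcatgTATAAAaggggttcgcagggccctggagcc

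Cxcl15 promoter: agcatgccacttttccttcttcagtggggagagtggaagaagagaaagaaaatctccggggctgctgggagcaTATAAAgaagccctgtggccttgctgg

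The run GGGAATTTCCC holds overlapping NF-kappaB matches on both strands, and it began at -71 in Cxcl1, -97 in Cxcl2 and -73 in Cxcl3 counted from the RefSeq start, which is -67, -69 and -75 from the GENCODE start. TATAAA was present in Cxcl3 at -30 and in Cxcl15 at -27. Cxcl15 had no NF-kappaB match in its 300-base window. Among all 32851 promoter windows of the table, 8.46% held the NF-kappaB consensus, 13.6% TATAAA, 3.44% the interferon-stimulated element, 16.8% the RUNX motif and 10.8% the C/EBP motif. No C/EBP match was in the 6 windows. For the interferon-induced genes, the 230 bases before the start of Cxcl10 (chr5:92348890-92349119, minus strand) and of Cxcl9 (chr5:92328080-92328309, minus strand) are given for comparison:

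Cxcl10 promoter: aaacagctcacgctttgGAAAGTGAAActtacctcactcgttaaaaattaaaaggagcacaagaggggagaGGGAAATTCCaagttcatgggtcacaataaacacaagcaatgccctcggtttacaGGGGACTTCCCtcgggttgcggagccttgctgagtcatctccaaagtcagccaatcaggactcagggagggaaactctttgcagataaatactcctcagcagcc

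Cxcl9 promoter: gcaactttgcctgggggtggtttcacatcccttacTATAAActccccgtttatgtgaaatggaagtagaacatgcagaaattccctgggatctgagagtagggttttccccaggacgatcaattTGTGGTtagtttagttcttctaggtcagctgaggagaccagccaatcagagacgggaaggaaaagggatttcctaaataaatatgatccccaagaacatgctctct

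Cxcl10 was alone among the 6 windows with the interferon-stimulated element, GAAAGTGAAA at -213, and it had NF-kappaB matches from -159 and from -104, the second a run with overlapping matches. Cxcl9 had TATAAA at -195 and TGTGGT at -106 in this window and no NF-kappaB match. A match describes letters only and shows no bound factor.

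The Cxcl1 promoter, the site that chose these genes, lay at chr5:90890588-90891693 and was called in all 7 libraries. Its fold enrichment was 5.24, 7.41, 7.07 and 9.80 in WTAkita libraries 1 to 4, against 11.8, 9.68 and 9.46 in Ctrl libraries 1 to 3. WTAkita averaged 7.38 ± 1.87 (SD, n = 4) and Ctrl 10.3 ± 1.29 (SD, n = 3). On the deposited scale the groups overlapped, because WTAkita 4 lay above Ctrl 2 and Ctrl 3. After quantile normalization of the log2 values, in which every library is given the same distribution over all regions, the values were 2.67, 3.005, 2.70 and 3.13 in WTAkita libraries, against 3.65, 3.13 and 3.16 in Ctrl libraries. On that scale the highest WTAkita library lay below the lowest Ctrl library by 0.00695, and the mean difference was -0.44 (SE 0.17). This difference selected the genes, so it is described here and was not tested. It was -0.27 without Ctrl 1, the highest library, and -0.24 without the 3 libraries of low median fold enrichment. The groups overlapped again without normalization, with median centring, with the mean fold enrichment of the peaks in the region and with the tag pileup. As a setting of the fit, the tag pileup is divided by the estimated tags of the library.

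The peak heights behind these ratios were modest. The summit held 25, 38, 29 and 44 tags in WTAkita libraries, against 56, 49 and 37 tags in Ctrl libraries. The exact 95% Poisson intervals were 16.2 to 36.9 tags for WTAkita 1, the lowest library, and 42.3 to 72.7 tags for Ctrl 1, the highest, and they cover counting error only. The intervals of WTAkita 4 (31.97 to 59.07 tags) and Ctrl 3 (26.1 to 51.0 tags) overlapped widely.

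Within the Cxcl1 promoter every library had a pair of summits, and these are described as parts of the same site. The taller summit lay between -351 and -333 bp from the start site, and the smaller between -5 and 122 bp. The upstream summit was the higher in 7 of 7 libraries. At the smaller summit, over the start site, the fold enrichment was 3.83, 3.04, 4.004 and 6.10 in WTAkita libraries, against 6.62, 6.39 and 5.23 in Ctrl libraries. WTAkita 4 was again inside the range of Ctrl, and the other 3 WTAkita libraries were below it. The NF-kappaB run shown above lies between the summits. The 200 bases around the median position of the upstream summit (chr5:90890798-90890997, plus strand), the strongest point of Cxcl1, held none of the 5 motifs, although a wider window of 300 bases held a RUNX match:

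Cxcl1 upstream summit: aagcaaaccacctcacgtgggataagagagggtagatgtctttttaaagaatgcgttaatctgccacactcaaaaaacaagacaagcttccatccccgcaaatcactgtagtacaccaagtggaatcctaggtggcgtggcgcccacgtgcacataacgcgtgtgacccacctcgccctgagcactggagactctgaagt

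**Figure D1:**
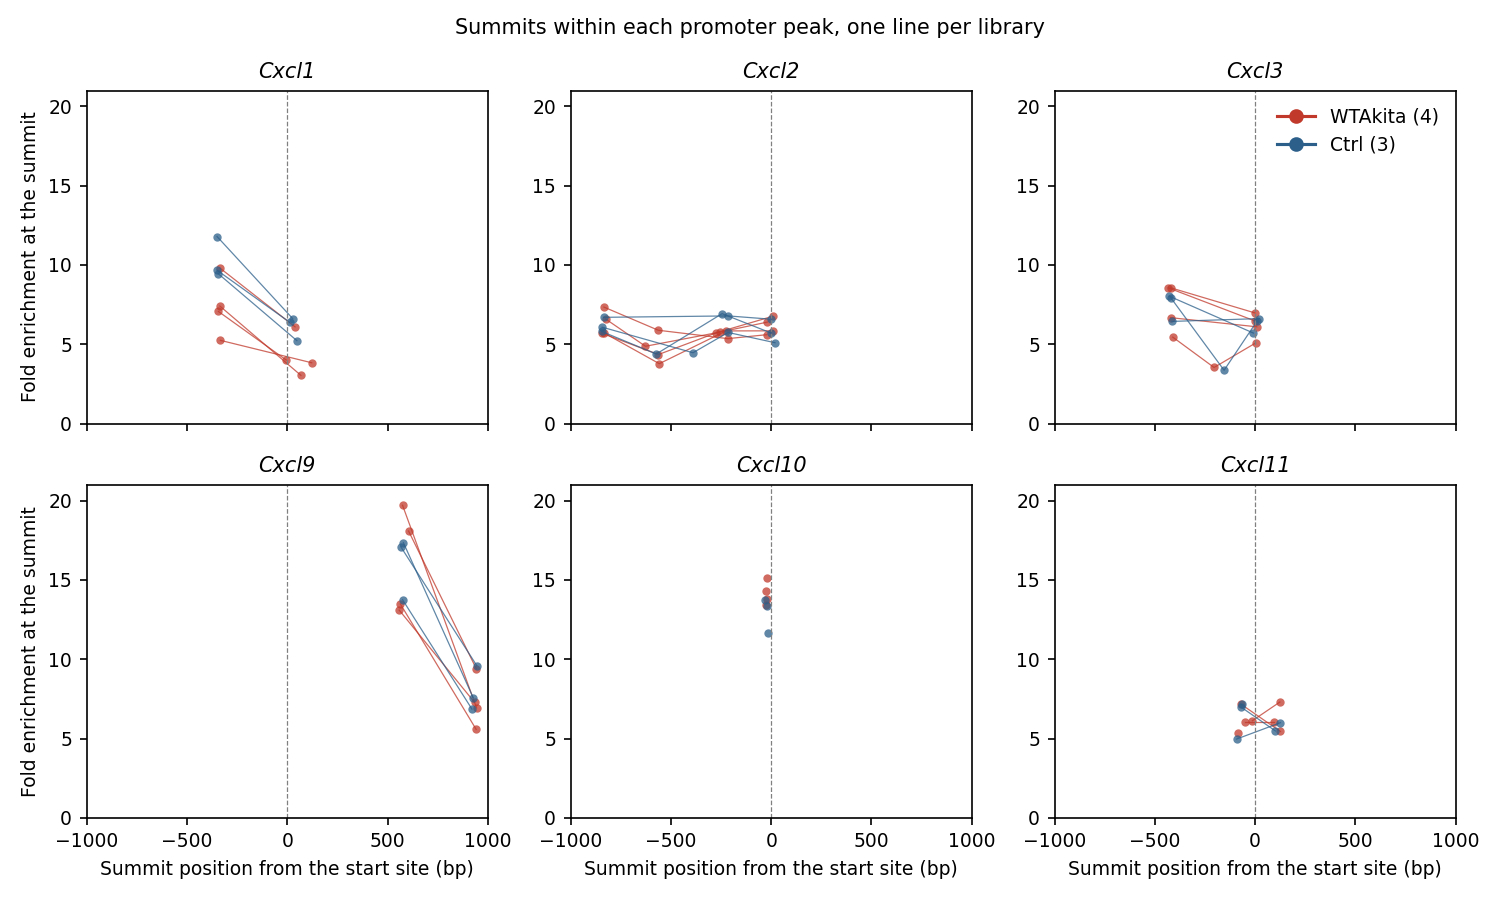
Summits within the promoter peaks of 6 CXC chemokine genes, with the position from the start site (bp, positive in the direction of transcription) on the x axis and the fold enrichment at the summit on the y axis; each line joins the summits of 1 library, WTAkita in red (n = 4) and Ctrl in blue (n = 3). Cxcl1 has its tall summit between -351 and -333 bp, Cxcl9 has its tall summit in the gene, and Cxcl10 has a single summit at the start.

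The promoter of Cxcl2 (chr5:90902898-90904116), whose start lies 12.63 kb beyond that of Cxcl1, was called in all 7 libraries. Its fold enrichment was 6.76, 5.85, 7.34 and 6.60 in WTAkita libraries, against 6.79, 6.93 and 6.08 in Ctrl libraries. The groups overlapped, with means of 6.64 ± 0.617 (SD, n = 4) in WTAkita and 6.60 ± 0.456 (SD, n = 3) in Ctrl. The difference in log2 fold enrichment was 0.07 (SE 0.16), with an adjusted p of 1.00 from limma. The peak was broad, 1219 bp as a union, and each library had 3 or 4 summits in it. Some lay between -845 and -826 bp and others between -22 and 19 bp, and the tallest was not at the same place in every library.

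The promoter of Cxcl3 (chr5:90785532-90786418) also had an upstream summit between -433 and -411 bp and another at the start, between -9 and 20 bp, with a smaller one between them in WTAkita 2 and Ctrl 3. The upstream summit was the higher in 6 of 7 libraries. Fold enrichment was 6.68, 5.45, 8.56 and 8.56 in WTAkita libraries, against 6.62, 8.03 and 7.94 in Ctrl libraries. The groups overlapped, and the log2 difference was 0.01 (SE 0.15, adjusted p = 1.00 from limma), a value that changed sign under several settings. The means of the groups, 7.31 ± 1.52 (SD, n = 4) in WTAkita and 7.53 ± 0.790 (SD, n = 3) in Ctrl, differed by less than the spread between libraries.

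Cxcl5 (chr5:90759241-90759836) had the weakest promoter peak of the 7 genes that had one. Its fold enrichment was 3.38, 3.81, 2.34 and 4.54 in WTAkita libraries, against 3.79, 4.05 and 4.41 in Ctrl libraries. WTAkita 3 was the lowest, and WTAkita 1 was also below every Ctrl library. WTAkita 2 lay inside the range of Ctrl and WTAkita 4 above it, so the groups overlapped. The log2 difference was -0.19 (SE 0.20, adjusted p = 1.00 from limma), and it was 0.01 without WTAkita 3. The summit lay between 105 and 140 bp downstream of the start, in an exon of Cxcl5. For Cxcl15 no promoter peak was called in any library. The nearest site ended 3.80 kb before its start, and no site was called from there to the end of the stretch, over 42.3 kb. A peak list gives no value where nothing was called, so the level at Cxcl15 is not known from these data.

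Of the interferon-induced genes, Cxcl9 and Cxcl10 had the tallest peaks within 1000 bp of a start among the 8 genes. Cxcl11 ranked below Cxcl1, Cxcl2 and Cxcl3. At Cxcl9 (chr5:92327017-92327956) the fold enrichment was 13.5, 13.1, 19.7 and 18.1 in WTAkita libraries, against 13.8, 17.4 and 17.1 in Ctrl libraries. The 3 libraries with low list medians were also the 3 lowest here, in both groups, and the groups overlapped. The log2 difference was 0.06 (SE 0.10, adjusted p = 1.00 from limma). This peak did not cover the annotated start, which lay 123 bp outside it, and was no promoter site with a start window of 500 bp. Its tall summit was in an intron, between 558 and 605 bp downstream of the start, and a smaller summit followed between 921 and 945 bp. The 200 bases around the tall summit (chr5:92327404-92327603, minus strand) are shown because they held a RUNX match, in capitals:

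Cxcl9 intron summit: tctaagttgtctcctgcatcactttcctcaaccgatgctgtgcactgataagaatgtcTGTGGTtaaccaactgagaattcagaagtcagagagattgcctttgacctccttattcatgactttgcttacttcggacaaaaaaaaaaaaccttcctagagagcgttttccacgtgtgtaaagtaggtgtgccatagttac

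At Cxcl10 (chr5:92348568-92349234) the peak had a single summit, between -30 and -15 bp from the start in every library. Fold enrichment was 14.3, 13.8, 15.1 and 13.4 in WTAkita libraries, against 11.7, 13.8 and 13.4 in Ctrl libraries. WTAkita averaged 14.2 ± 0.740 (SD, n = 4) and Ctrl 12.9 ± 1.11 (SD, n = 3), and the groups overlapped. The log2 difference was 0.20 (SE 0.11, adjusted p = 1.00 from limma), and it was 0.12 without WTAkita 1, 0.29 without WTAkita 4, when the groups no longer overlapped, and 0.05 without the 3 libraries of low median. The summit pileups of Cxcl10, 143 to 205 tags over the 7 libraries, were well above those of Cxcl1.

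Cxcl11 had a peak (chr5:92363031-92363595) with its median summit 64 bp before the inner of its 2 annotated starts, at 92363277. That summit lay inside the gene, in an exon of Cxcl11. The outer start, at 92365485, had no site within 1000 bp, and distances upstream of Cxcl11 given below are counted from it. Fold enrichment was 6.05, 5.32, 7.30 and 7.19 in WTAkita libraries, against 5.9999, 7.16 and 6.97 in Ctrl libraries. The groups overlapped, and the log2 difference was 0.00 (SE 0.15, adjusted p = 1.00 from limma).

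**Figure D2:**
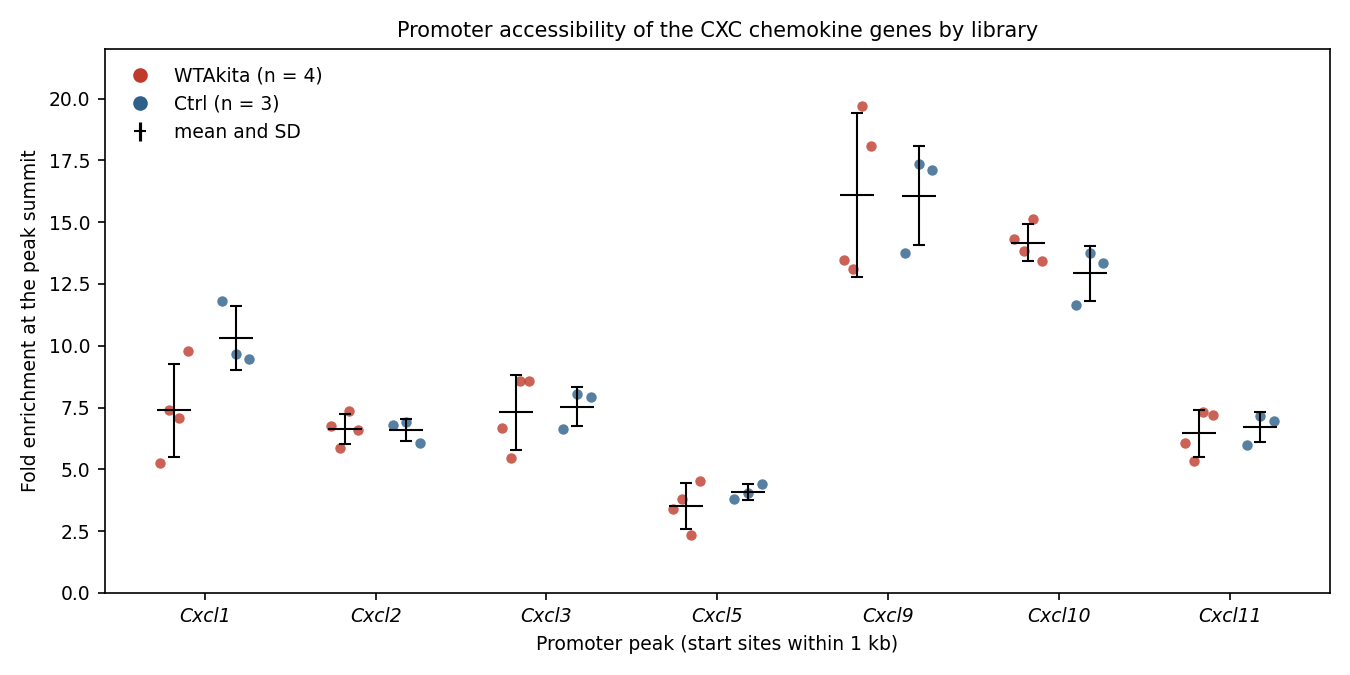
Fold enrichment at the promoter peak of 7 CXC chemokine genes (y axis, linear, from 0), by gene on the x axis; each point is 1 library, WTAkita in red on the left (n = 4) and Ctrl in blue on the right (n = 3), and the bars give the mean and SD. Cxcl9 and Cxcl10 stand above the others, and at Cxcl1 the WTAkita points lie between 5.24 and 9.80 and the Ctrl points between 9.46 and 11.8. The Cxcl9 peak has its summit in an intron and does not cover the start.

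By the geometric mean over the 7 libraries the promoter sites ranked Cxcl9 (15.9, its intron peak), Cxcl10 (13.6), Cxcl1 (8.38), Cxcl3 (7.32), Cxcl2 (6.60), Cxcl11 (6.53) and Cxcl5 (3.69). Most neighbours in this order changed places in some libraries. Cxcl9 exceeded Cxcl10 in 5 of 7 libraries, Cxcl1 exceeded Cxcl3 in 5 of 7, Cxcl3 exceeded Cxcl2 in 4 of 7 and Cxcl2 exceeded Cxcl11 in 4 of 7. Cxcl10 exceeded Cxcl1 in 6 of 7 libraries, the exception being Ctrl 1, and Cxcl11 exceeded Cxcl5 in 7 of 7. Set among the promoter regions of 15423 protein-coding genes, Cxcl9, by its intron peak, lay at the 59.0 percentile of normalized level. Cxcl10 lay at the 44.4 percentile. Cxcl1 lay at the 15.9 percentile, Cxcl3 at 11.8, Cxcl2 at 9.34, Cxcl11 at 9.04 and Cxcl5 at 1.41. The neutrophil chemokine promoters had open chromatin in LSK cells, at levels in the lower part of those called in all libraries.

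Each library had 39 to 43 peaks at the chemokine genes, 40.8 ± 1.71 (SD, n = 4) in WTAkita and 40.7 ± 2.08 (SD, n = 3) in Ctrl. Of the 41 sites, 21 were around Cxcl1, Cxcl2, Cxcl3, Cxcl5 and Cxcl15 and 20 around Cxcl9, Cxcl10 and Cxcl11, which occupy a shorter stretch. In all, 7 sites were promoters of the 8 genes, 6 were promoters of other genes, 3 lay in the gene bodies, 10 in bodies of other genes and 15 between genes. Of the 41, 35 were called in all 7 libraries. The other 6 were weak, with fold enrichments of 2.29 to 4.45, and none was called in every library of a group and in no library of the other. Counting every summit line rather than every peak gave 56, 57, 56 and 57 lines in WTAkita libraries, against 59, 61 and 61 lines in Ctrl libraries. Summit lines were fewer in each WTAkita library than in each Ctrl library, although the peaks were not, and this count was not tested. Over whole lists the summit lines of the groups overlapped, with 180817 to 195594 in WTAkita libraries and 186943 to 192587 in Ctrl libraries.

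**Figure D3:**
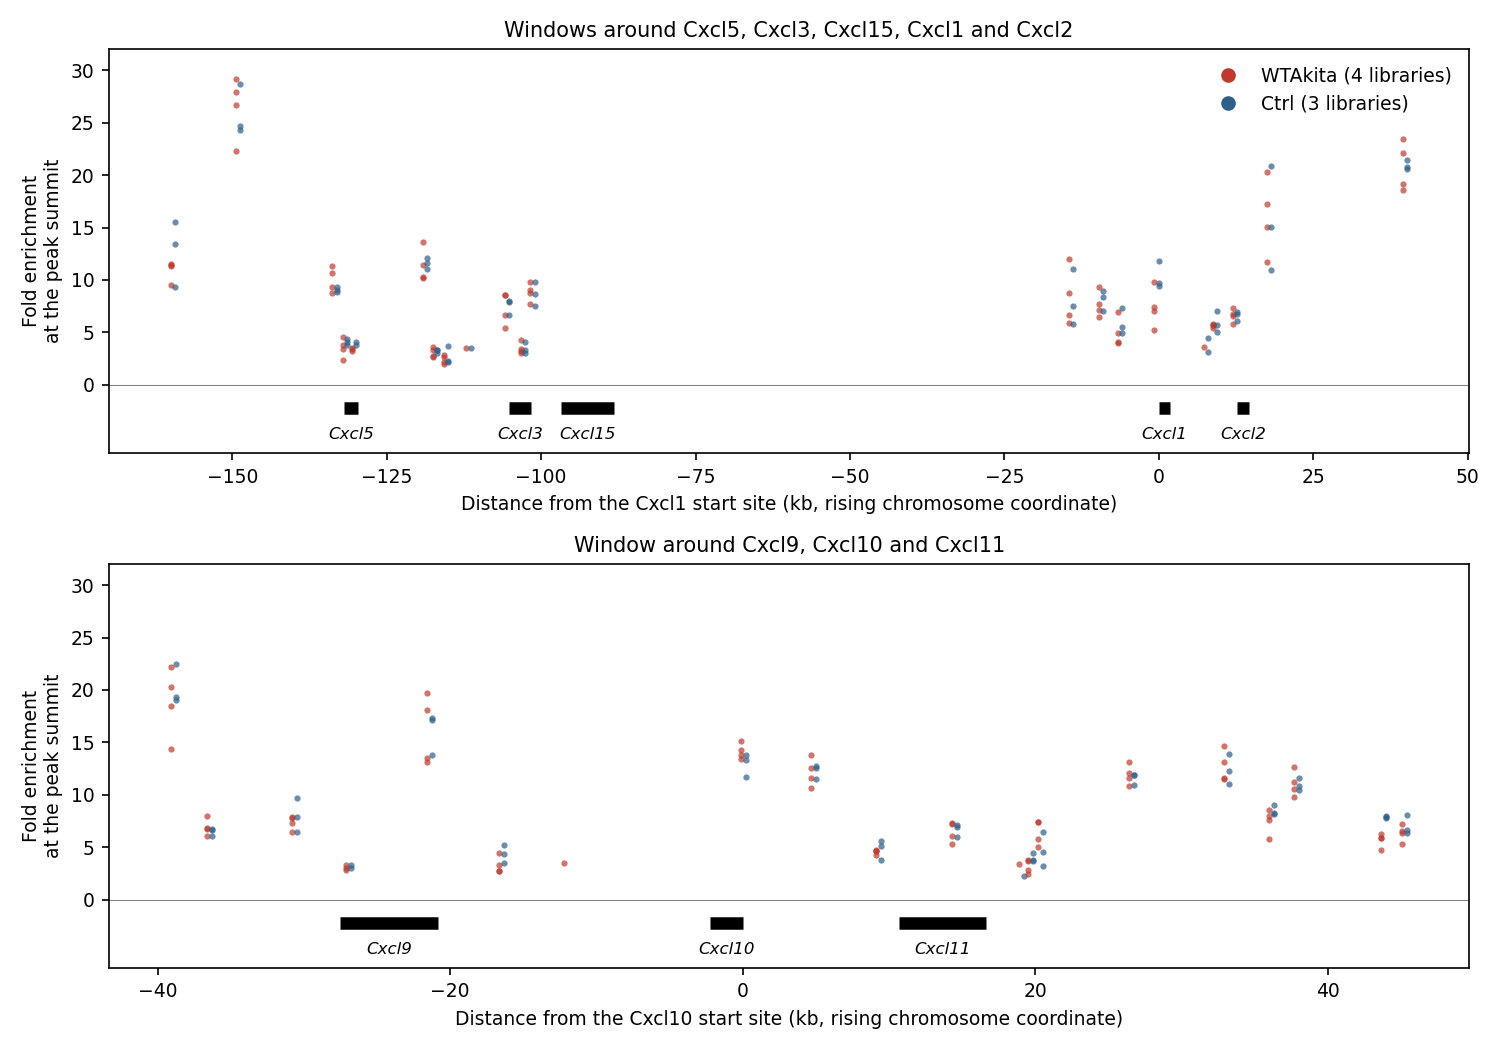
Fold enrichment at the summit of every site (y axis) against the distance of the site from the Cxcl1 start (upper panel) and the Cxcl10 start (lower panel) in kb (x axis); each point is 1 library, WTAkita in red on the left of a pair and Ctrl in blue on the right, and black bars are the genes. The tallest site lies 17.2 kb before Cxcl5, and the points of both groups overlap at nearly every site.

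On average, 3 sites exceeded every promoter of the 8 genes, namely the promoters of Mthfd2l and Sdad1 and a site between genes. This last, the tallest, at chr5:90741895-90742596, lay between genes 17.2 kb before the Cxcl5 start. Its fold enrichment was 22.3, 27.9, 26.7 and 29.2 in WTAkita libraries, against 24.3, 28.7 and 24.7 in Ctrl libraries. The groups overlapped, and the log2 difference was 0.09 (SE 0.07, adjusted p = 1.00 from limma). A site 5.27 kb downstream of the Cxcl2 start, at chr5:90908969-90909371, had 11.7, 15.01, 20.3 and 17.2 in WTAkita libraries, against 10.97, 15.1 and 20.9 in Ctrl libraries. The lowest library of each group was far below the highest, and the groups overlapped. Other tall sites near the neutrophil chemokine genes were the promoter of Mthfd2l (18.6 to 23.4 over the 7 libraries), the site 27.7 kb before Cxcl5 (9.31 to 15.5) and the promoter of Pf4 (10.2 to 13.6), which encodes the platelet chemokine CXCL4. Around Cxcl9, Cxcl10 and Cxcl11 the tallest outside the promoters of these genes were the promoter of Sdad1 (14.3 to 22.5) and sites in the gene Art3, which spans Cxcl10 and Cxcl11 on the opposite strand. These lay 16.4 kb (11.02 to 14.7), 9.99 kb (10.9 to 13.1) and 21.3 kb (9.76 to 12.7) upstream of Cxcl11 and 4.85 kb (10.6 to 13.8) upstream of Cxcl10. At none of these named sites were the groups separate.

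To compare the groups, regions were joined across libraries by the rule of the study and 104801 regions with a value in all 7 libraries were fitted with limma. Of the 41 sites, 34 had such a region. A site 14.2 kb before Cxcl1 was called in all 7 libraries but had no value there, since the peak of WTAkita 1 covered too little of the region. None of the 104801 fitted regions, and so none of the 34 at the chemokine genes, passed an adjusted p of 0.05 from limma (0% of regions). The joining gave 132484 regions, and those without a value in every library were not tested. At an unadjusted p under 0.05 there were 4005 regions (3.82%), and of the 33 chemokine regions other than the Cxcl1 promoter there were 2 (6.06%). The WTAkita and Ctrl values did not overlap at 5 of the 34 regions, the Cxcl1 promoter among them. Without the Cxcl1 promoter that is 4 of 33 regions (12.1%), against 4.7% of all regions, WTAkita being higher at 2 and lower at 2. It was 1 of the 33 without normalization (2.64% of all regions) and 1 of the 33 with the tag pileup (1.73% of all regions), the Art3 site described next in both. Without the 3 libraries of low median it was 9 of 35, and 32.5% of all regions were then without overlap. The median difference over the 34 regions was 0.01, as it was over all regions (0.01), and 19 were above 0 and 15 below.

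**Figure D4:**
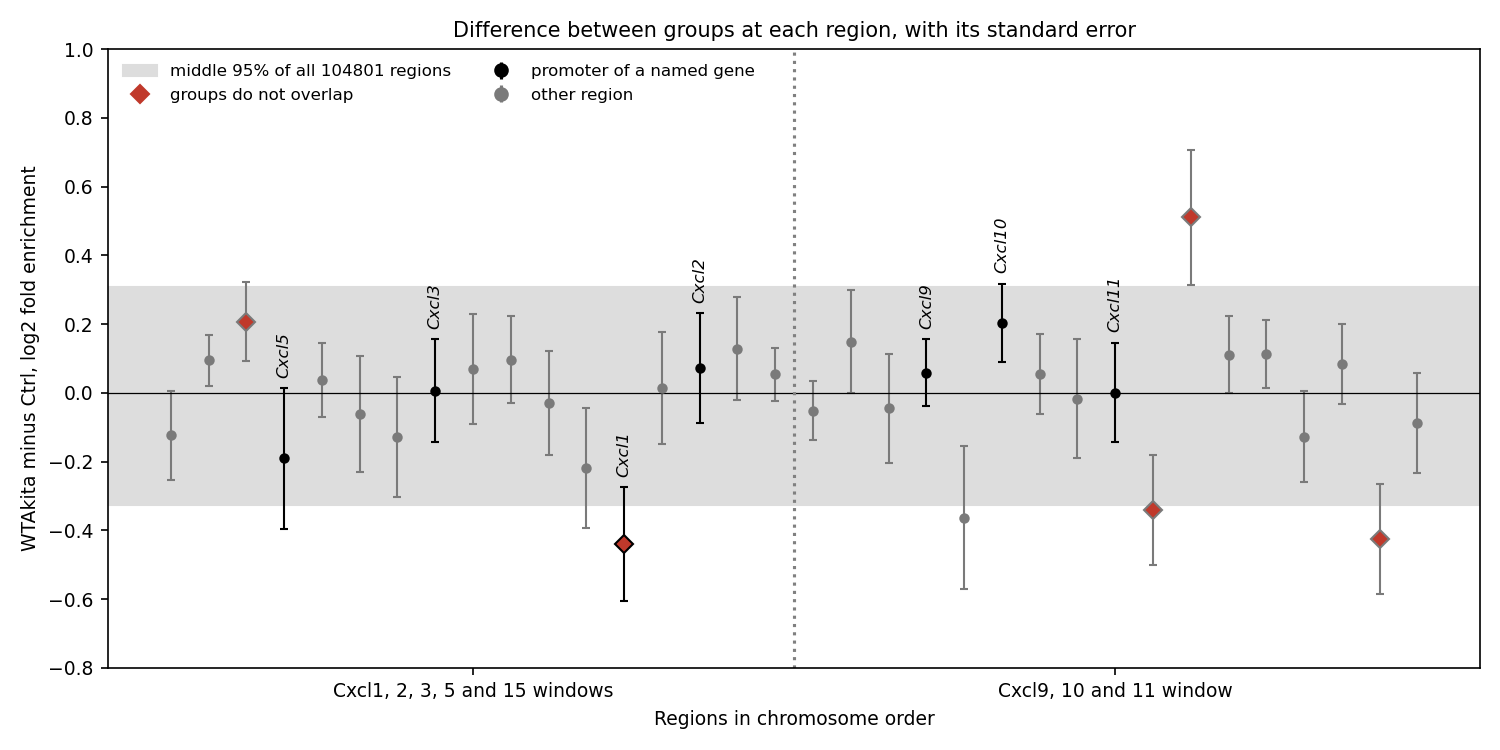
Difference of WTAkita minus Ctrl in normalized log2 fold enrichment (y axis) at the 34 regions in chromosome order (x axis), with bars of 1 standard error; diamonds are regions at which the groups do not overlap, black marks the promoters of the named genes, and the grey band holds the middle 95% of the 104801 regions (-0.33 to 0.31). Cxcl1 is the lowest promoter, and 5 of the 34 regions lie outside the band, Cxcl1, which chose the genes, among them.

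The separation was steadiest at a site in Art3 (chr5:92392553-92393378), 27.2 kb upstream of Cxcl11. Art3 encodes a protein of the ADP-ribosyltransferase family. The summit was in an exon, 122 bp after an annotated internal start of Art3 transcription. Fold enrichment was 5.89, 4.74, 5.87 and 6.31 in WTAkita libraries, against 7.91, 8.02 and 7.83 in Ctrl libraries. All 4 WTAkita libraries were below all 3 Ctrl libraries. This was the 1 site of the 35 at which the deposited values of the groups were apart. Without normalization the groups were apart at 2.64% of all regions, so 1 site in 35 is near that share. The summit held 46, 37, 41 and 44 tags in WTAkita libraries, against 61, 65 and 51 tags in Ctrl libraries. The log2 difference was -0.43 (SE 0.16), with an unadjusted p of 0.0187 and an adjusted p of 1.00 from limma. It ranged from -0.54 to -0.36 when each library was left out in turn. The groups were apart under all 18 other settings, but many of these could hardly have changed that. The fit without trend and the replicate block use the same values, and leaving libraries out seldom joins groups already apart. The 200 bases around this summit (chr5:92392607-92392806, plus strand) held a RUNX match on the opposite strand:

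Art3 internal start summit: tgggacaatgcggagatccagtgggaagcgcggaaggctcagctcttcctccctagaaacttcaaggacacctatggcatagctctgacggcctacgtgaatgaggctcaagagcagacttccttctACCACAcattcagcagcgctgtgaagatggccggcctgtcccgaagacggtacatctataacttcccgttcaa

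On the normalized scale, a pair of neighbouring sites upstream of Cxcl11 had differences of opposite sign. They lay 3.08 kb and 3.75 kb before its outer start, in an intron of Art3, with 142 bp between them. At the nearer site (chr5:92368408-92368902) the fold enrichment was 2.41, 2.82, 3.65 and 3.81 in WTAkita libraries, against 3.68, 4.47 and 3.81 in Ctrl libraries. The normalized log2 difference was -0.34 (SE 0.16, unadjusted p = 0.0503 and adjusted p = 1.00 from limma). At the farther site (chr5:92369045-92369478) it was 5.02, 5.81, 7.39 and 7.40 in WTAkita libraries, against 4.56, 6.47 and 3.22 in Ctrl libraries. The difference there was 0.51 (SE 0.20, unadjusted p = 0.0207 and adjusted p = 1.00 from limma), and it was 0.25 without Ctrl 3, the lowest library. Deposited values overlapped at both sites, as did the tag pileups, and the groups were separate on the normalized scale only. The summits held few tags, 12 to 28 at the nearer site and 15 (Ctrl 3) to 46 at the farther.

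The remaining region without overlap lay 1.59 kb before Cxcl5 (chr5:90757506-90758622). Its fold enrichment was 8.79, 9.29, 10.7 and 11.3 in WTAkita libraries, against 9.04, 9.33 and 8.86 in Ctrl libraries, so the deposited values overlapped. On the normalized scale the values were 3.43, 3.33, 3.30 and 3.34 in WTAkita libraries, against 3.27, 3.08 and 3.07 in Ctrl libraries. The difference was 0.21 (SE 0.12, unadjusted p = 0.0952 and adjusted p = 1.00 from limma), and with the tag pileup it was -0.02.

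Other ligands and receptors of the CXC system were set beside the chemokine genes. Of 15 such genes, 7 ligands and 8 receptors, 11 had a promoter region with a value in all 7 libraries, and Ppbp, Cxcl13 and Cxcr6 had no promoter peak in any library. None of the 11 passed an adjusted or an unadjusted p of 0.05 from limma, and at none were the groups apart. Differences were above 0 at 6 and below 0 at 5, with a median of 0.01. Cxcr1 (0.15, SE 0.18) and Cxcr3 (0.12, SE 0.11), the receptor of Cxcl9, Cxcl10 and Cxcl11, had the highest. Ackr1, a decoy receptor that binds chemokines without signaling, had the lowest (-0.25, SE 0.18), followed by Cxcr2 (-0.05, SE 0.21), the receptor of Cxcl1. Cxcr2 fold enrichment was 5.16, 4.16, 4.16 and 4.11 in WTAkita libraries, against 3.42, 5.62 and 5.56 in Ctrl libraries, and the groups overlapped. Pf4, which lies inside the neutrophil chemokine stretch, differed by 0.04 (SE 0.11).

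The promoters whose normalized values were most like those of Cxcl1 over the 7 libraries were Suclg2 (Pearson r = 0.979), Tspyl3 (r = 0.978) and Slc4a3 (r = 0.968), out of 14197 promoter regions. With 7 points that share their libraries this is a description of likeness. Their own differences were smaller than that of Cxcl1, -0.07 at Suclg2, -0.22 at Tspyl3 and -0.10 at Slc4a3. Likeness to Cxcl1 chose these promoters, so differences below 0 largely follow from the choice. No other promoter of the 8 chemokine genes was among these 3.

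Motifs were also counted in the 300 bases around the tallest summit of each region. The NF-kappaB consensus was in 4 of the 34 regions (11.8%), against 7.57% of all 104801 regions, and the RUNX motif in 10 of 34 (29.4%), the promoters of Cxcl1, Cxcl2 and Cxcl9 among them, against 30.6% of all. TATAAA was in 2 of 34 against 11.9% of all, the interferon-stimulated element in 2 of 34 against 4.89%, and the C/EBP motif in 5 of 34 against 11.9%. The regions with the NF-kappaB consensus near the summit were the promoters of Cxcl10 and Pf4, the site 4.85 kb upstream of Cxcl10 and the nearer of the pair of sites upstream of Cxcl11. At Cxcl1, Cxcl2 and Cxcl3 the run shown above lay outside this window.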

How the data were processed

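ATAC-seq was read from 7 peak lists, 1 per library. Per the submitters' processing notes, the authors used Trim Galore 0.4.2, cutadapt 1.9.1, Bowtie2 2.3.4.1 and MACS2 2.1.4 on mm10. The deposited lists hold, for each summit, the fold enrichment ratio over local background, the −log10 p, the −log10 q-value and a score, as the authors' caller wrote them, with a p threshold of 0.01. They hold no read counts, so the count test of the study could not be run on them. Depth was estimated from the lists and limits the precision of weak peaks.

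Regions were joined across libraries by the study's rule (overlap of 50%). The log2 fold enrichment of the tallest summit was quantile-normalized and fitted with limma 3.58.1 (R 4.3.3) with a trend, over regions with a value in all 7 libraries, with Benjamini-Hochberg adjustment. The fit was tested on simulated data whose shifts were larger than the differences at the chemokine regions, which leaves smaller shifts untried. Sites are unions of overlapping chemokine peaks, and a promoter site lies within 1000 bp of a GENCODE vM21 start. Tables were made with Python 3.11.15, numpy 2.4.6, scipy 1.17.1 and pandas 2.3.3. Alternatives changed the measure, normalization, p threshold, overlap, replicate block and libraries used.

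All 8 genes were named, with the 5 tallest other sites around each gene group, sites at which the groups did not overlap, the 2 highest and 2 lowest other CXC genes and the 3 promoters most like Cxcl1. The genes and lists were chosen with earlier results of these data known.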

Additional observations from a re-analysis of the deposited data

Results flagged for a closer look

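Among the 34 chemokine regions, 1 held a library far from the rest of its group. At the Cxcl5 promoter WTAkita 3 had a normalized log2 fold enrichment of 1.19, against 1.96, 2.03 and 2.05 in the other WTAkita libraries. Its gap to the nearest of them, as a share of the range of the 4 libraries, exceeded the 95% limit of Dixon's test. The 3 Ctrl libraries were too few for this test, and chance alone marks about 1 in 20 groups.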

How the results depend on the processing

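No region passed an adjusted p of 0.05 from limma in the fit as reported, against 8 with the mean fold enrichment of the peaks in a region and 0 to 1 when each library was left out, the 1 without WTAkita 4. The counts that follow leave out the Cxcl1 promoter, which chose the genes. Chemokine regions at an unadjusted p under 0.05 from limma numbered 2 of 33 (3.82% of all regions). They numbered 1 of 33 with the tag pileup (0.81% of all). When each library was left out they numbered 1 (without Ctrl 1, 4.69%) to 4 (without WTAkita 4, 4.49%). Regions without overlap numbered 4 of 33 (4.7% of all regions). They numbered 1 of 33 with the tag pileup (1.73%) and 1 of 33 without normalization (2.64%). With peaks at −log10 p of 5 or more they numbered 3 of 29 (4.65%). When each library was left out they numbered 4 to 7 (8.12% to 13.5% of all), with 7 without WTAkita 2, WTAkita 4 or Ctrl 3. Without the 3 libraries of low median, regions without overlap numbered 9 of 35 (32.5% of all). With the Cxcl1 promoter counted, the number under that setting was 10 of 36. That setting was chosen after seeing the data. Peaks within gene bodies alone averaged 7.25 in WTAkita and 8 in Ctrl. At −log10 p of 5 or more the Cxcl1 promoter had no value. Its difference stayed below 0 under the 17 other settings, from -0.533 to -0.236.

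Without the Cxcl1 promoter, the replicate block gave 4 of 33 chemokine regions at an unadjusted p under 0.05 from limma, against 6.21% of all regions. It gave 0 regions of all at an adjusted p of 0.05 from limma. Deviations of libraries with the same number correlated at 0.214, 0.0253 and 0.0633, so the numbers were not taken as pairs. Under the block Cxcl3 was -0.0136.

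Differences near 0 changed sign. Cxcl3 was -0.127 with the pileup, -0.0617 without normalization, -0.000123 at an overlap of 75%, and -0.0474 to 0.113 with a library left out. Cxcl11 was -0.0722 with the pileup, -0.0616 without normalization, -5.1e-05 at −log10 p of 5 or more, -0.00303 without the 3 libraries, and -0.0567 to 0.0618 with a library left out. Cxcl9 was -0.0127 without normalization and -1.11e-05 to 0.123 with a library left out. The site 1.59 kb before Cxcl5 was -0.0152 with the pileup. With a library left out Cxcl2 ranged from -0.0202 to 0.159 and Cxcl5 from -0.269 to 0.0129. The median of all regions itself shifted to -0.12 with the pileup and -0.058 without normalization. The cause of these changes was not tested. A missing peak says only that no call was made.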
